A study of Mus musculus with 12 samples.

Results

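Messenger RNA of the cytosolic ribosomal proteins was examined in mouse brain tumours and in cortex. The members were all genes whose symbol is Rpl or Rps followed by a number, with an optional letter and copy number, together with Rplp0, Rplp1, Rplp2 and Rpsa, and without -ps pseudogenes and the Rps6k kinases. This rule gave 84 of 24421 genes, 51 of the large subunit and 33 of the small subunit. It used no measured value, but it was chosen with earlier results of these data known.

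The cytosolic ribosome makes nearly all cellular protein, and its large and small subunits are built in the nucleolus from ribosomal RNA and from the Rpl and Rps proteins. Many of these mRNAs begin with a run of pyrimidines, through which the mTOR pathway and the protein LARP1 control their translation. The genes are expressed in every cell type and are usually transcribed in step, and dividing cells, which must copy their ribosomes, need more of these proteins than resting neurons.

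The study has 12 polyA RNA-seq libraries in 4 groups of 3. The cortex group is wild-type, non-tumour mouse cortex. The other 9 libraries are mouse ependymomas carrying the ZFTA-RELA fusion, a transcription regulator formed by a gene fusion in this brain tumour: control tumours with the fusion alone, tumours that also overexpress human ETV5, an ETS transcription factor, and tumours that also overexpress human NPY, the neuropeptide Y precursor. Reads at the mouse genes cannot be taken as a measure of the human transgenes, so the names ETV5 and NPY follow the labels. The labels give no age, strain, promoter or host for any group, and do not say that replicates were separate animals, so p-values measure only the spread between these samples.

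The cortex libraries held 5962376 to 7444467 reads. The ranges of the tumour libraries were 6266613 to 9443466 (control), 6691146 to 11291057 (ETV5) and 8214523 to 10481943 (NPY). Levels are given as CPM, reads scaled to a common library total, and so depend on all other genes of the library. The 14 neuron markers checked summed to 12800.1 to 14206 CPM in cortex and to 132 to 1977 CPM in the tumours, none of them at 0 in any library. The tumours thus held less neuronal RNA than the cortex, and in bulk tissue fewer cells of a type and less RNA per cell cannot be told apart.

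Ribosomal protein mRNA took up a larger share of the tumour libraries than of the cortex libraries. The 84 genes together held 1.84%, 1.90% and 2.04% of reads in the cortex libraries (1.93% ± 0.101, SD, n = 3) and 4.53%, 4.15% and 4.10% in the control tumours (4.26% ± 0.239, SD, n = 3). They held 4.73%, 5.79% and 4.39% in the ETV5 tumours (4.97% ± 0.731, SD, n = 3) and 4.82%, 5.08% and 6.65% in the NPY tumours (5.52% ± 0.988, SD, n = 3). Each tumour library thus lay above each cortex library, the ETV5 tumours overlapped the control tumours, and the 3 NPY tumours lay above the highest control tumour. The 95% Wilson interval of a single library's share reached at most 0.0177 percentage points to either side, which covers counting error only.

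**Figure D1:**
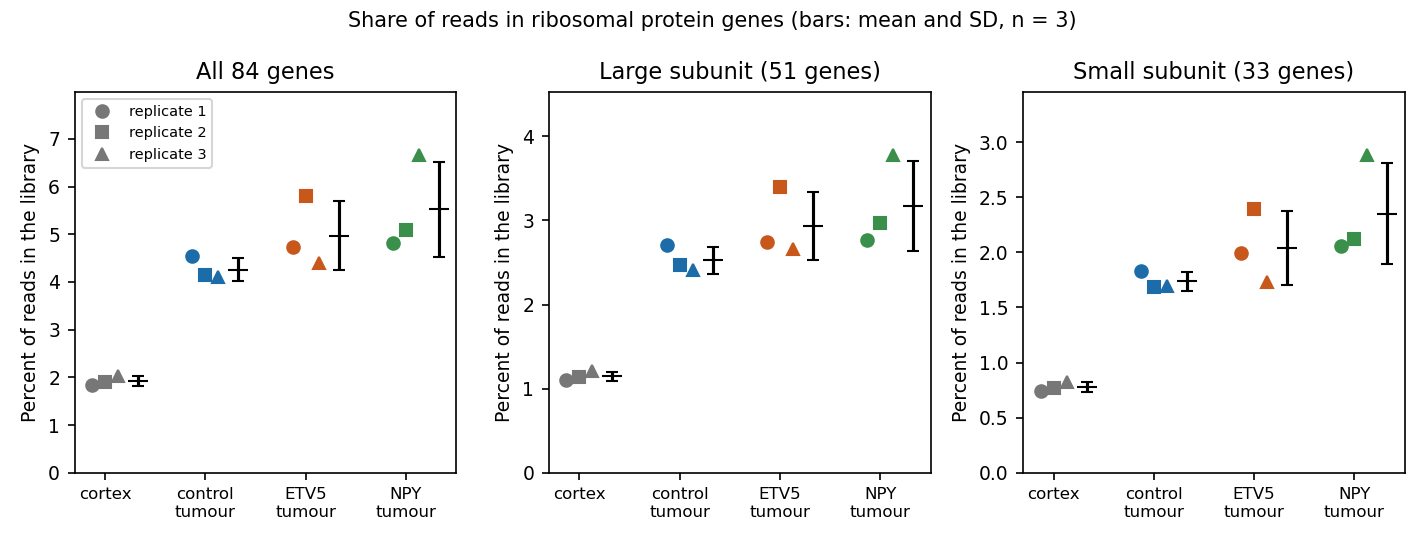
Percent of each library's reads (vertical axis) in all 84 genes, in the 51 large-subunit genes and in the 33 small-subunit genes, by group. Points are libraries and bars the mean and SD of 3. The tumour libraries sit between 4.10% and 6.65%, all above the cortex libraries at 1.84% to 2.04%.

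The large and small subunits moved together. Reads in large-subunit genes outnumbered those in small-subunit genes 1.49, 1.48 and 1.46 times in cortex and 1.47, 1.46 and 1.42 times in control tumours. In ETV5 tumours the ratio was 1.38, 1.42 and 1.54, and the NPY tumours had 1.35, 1.40 and 1.31. The NPY tumours lay below every control and cortex library in this ratio, while the ETV5 tumours reached from below the control tumours to above the cortex.

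Averaged over the libraries, most members were present at similar levels once transcript length was taken into account. Of the 84 genes, 76 had at least 10 CPM in every library. The level per kb is reads per kb of principal transcript, rescaled to the same sum over all genes in each library. It is therefore not CPM divided by length. Averaged over 12 libraries, 68 of these 76 genes lay within 2-fold of the median level per kb of 1384. The highest levels per kb were those of Rpl41, which encodes the shortest ribosomal protein, at 4089, of Rplp1, a protein of the stalk that recruits translation factors, at 3590, of Rps14 at 2778 and of Rps29 at 2766. Rpl7l1, a relative of Rpl7, had the lowest level per kb of the 76 genes, at 137.

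The other 8 members had few or no reads. Rpl10l and Rpl26 were listed at 0 in all 12 libraries. Taking 3 of the 97919607 reads as the limit for counting error gives 0.0306 CPM for such a row. Rpl39l and Rpl3l had 7 and 19 reads in total. Rpl30 had 176 reads, Rpl34 had 307, Rps27 had 137 and Rps4l had 365. Rpl10l and Rpl39l are known as testis copies of Rpl10 and Rpl39, and Rpl3l as a muscle copy of Rpl3. Rpl26, Rpl30, Rpl34 and Rps27, in contrast, encode standard proteins of every ribosome, so their values here are not levels of the mRNA. Shared sequence is widespread in the family: of the 50-base words in each member's principal transcript, a median of 53.5% also occurred in another annotated gene. This share was 98.6% for Rps27, all of it found in its copy Rps27rt, which was listed at 0, and 71.3% for Rpl26. It was 50.6% for Rpl34 and 47.8% for Rpl30. High shares also occurred in members with many reads, such as Rps10 (92.4%, 49792 reads) and Rpl10 (92.1%, 66284 reads). The part of such copies in any value was not tested.

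The first comparison set the tumours with the fusion alone against non-tumour cortex. Nearly the whole family was higher in the tumours: 74 of the 79 members tested rose and 1 fell, where 35.7% of all 14621 genes tested were called higher and 36.2% lower (limma, called at a Benjamini-Hochberg adjusted p under 0.05). DESeq2 also called 74 higher and 1 lower, against 36% and 34.3% of all genes. The higher genes included 44 of the large subunit and 30 of the small subunit, out of 47 and 32 tested. The median log2 fold change of the members was 1.02, with an interquartile range of 0.82 to 1.17, and the median of all genes was -0.00. In 75 members each control tumour exceeded each cortex library and in 1 it lay below, where 43.8% and 33.6% of all genes did so. The rise was at least 2-fold in 44 members, where 24.2% of all genes were called higher by at least 2-fold.

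The rise was seen in each tumour library. Over the 76 genes above 10 CPM, the median level was 2.43, 2.24 and 2.22 times the cortex mean in the 3 control tumours, with 75, 76 and 76 genes above the highest cortex library. It was 2.51, 3.13 and 2.33 times the cortex mean in the ETV5 tumours and 2.62, 2.73 and 3.36 times in the NPY tumours. The median SD of log2 CPM between replicates over these 76 genes was 0.080 in cortex, 0.13 in control tumours, 0.22 in ETV5 tumours and 0.24 in NPY tumours. Over all genes tested, which include many low ones, it was 0.15, 0.24, 0.35 and 0.29.

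**Figure D2:**
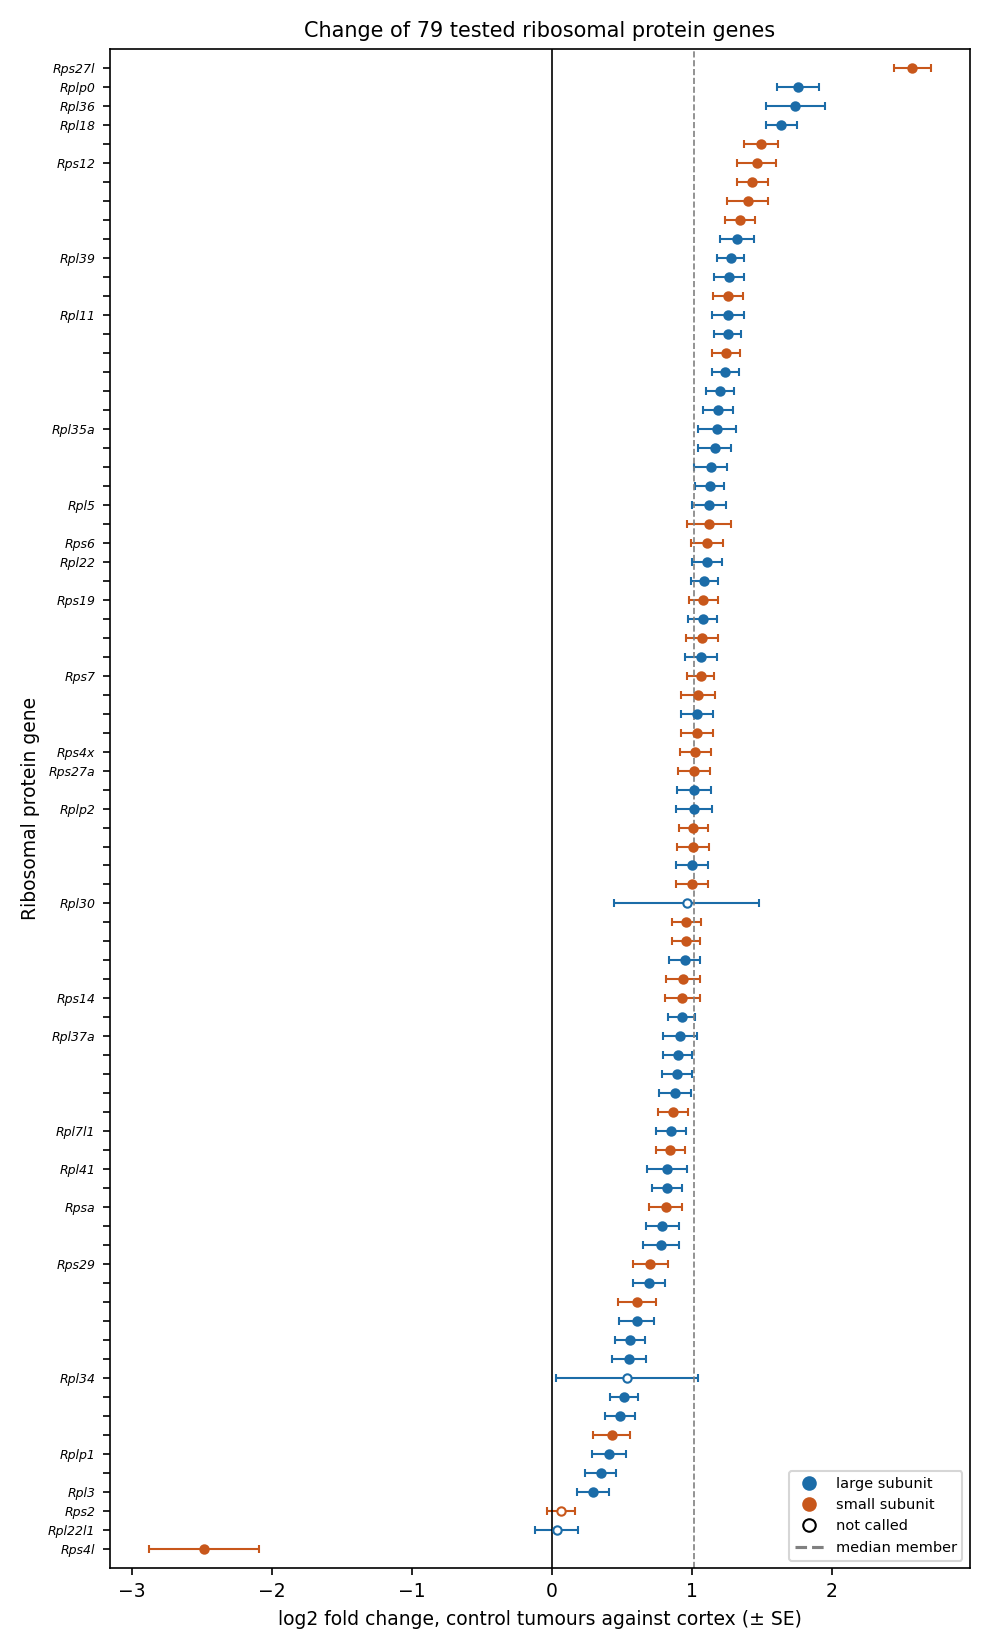
Log2 fold change of the 79 tested members, control tumours against cortex (horizontal axis, bars are the SE), sorted by size, with the genes named in the text labelled. Open points were not called, and the dashed line is the median member at 1.02. Rps27l lies furthest right at 2.57, and Rps4l is the single called gene left of 0.

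Rps27l, a copy of Rps27 known as a target of p53, rose most. It lies on chromosome 9 from 66946086 to 66949516 on the plus strand (mm10) and is protein coding. Its level was 17.6, 20.5 and 18.5 CPM in cortex, 141, 112 and 129 CPM in control tumours, 143, 101 and 129 CPM in ETV5 tumours and 173, 149 and 200.2 CPM in NPY tumours. The lowest tumour library was thus far above the highest cortex library, and the 3 tumour groups lay close together by comparison. Its log2 fold change in control tumours was 2.57 (SE 0.13, limma adjusted p = 1.35e-06).

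Rplp0, the base of the ribosomal stalk, was next. It had 313, 293 and 335 CPM in cortex and 1288, 1345 and 983 CPM in control tumours, with no overlap, and a log2 fold change of 1.76 (SE 0.15, limma adjusted p = 1.26e-05). Its stalk partners rose less: Rplp2 went from 134 ± 18.2 to 304 ± 13.8 CPM (SD, n = 3; log2 fold change 1.02), and Rplp1 from 597 ± 68.5 to 889.8 ± 83.7 CPM (SD, n = 3; log2 fold change 0.41, SE 0.12, limma adjusted p = 0.0151). The 3 stalk genes therefore rose by different amounts in the same libraries.

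Among the large-subunit genes, Rpl36 had 83.4, 95.3 and 121 CPM in cortex and 504, 293 and 349 CPM in control tumours (log2 fold change 1.74, SE 0.21). Rpl18 had 132, 127 and 156 CPM in cortex and 462, 488 and 507 CPM in control tumours (log2 fold change 1.64, SE 0.11). Neither gene overlapped between the groups. Of the small-subunit genes, Rps12 rose from 191 ± 20.5 to 596 ± 88.6 CPM (SD, n = 3; log2 fold change 1.46). These genes exceeded the family median of 1.02, and each passed the test.

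Another 6 members, named for a further role or a link to disease, rose. Rpl5 and Rpl11, which bind 5S ribosomal RNA and can hold back Mdm2, the inhibitor of p53, had log2 fold changes of 1.12 and 1.26. Rps6, the substrate of S6 kinase, had 1.11. Rps19, the gene most often mutated in Diamond-Blackfan anaemia, had 1.08. Rps27a, made as a fusion with ubiquitin, had 1.02, and Rpsa, also known as a laminin receptor, had 0.81. Each of these 6 genes passed the limma test, with adjusted p-values from 1.91e-05 for Rpl11 to 0.000297 for Rpsa.

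Some members did not follow the family. Rps2, a protein of the small subunit near the mRNA entry channel, had 412, 419 and 470 CPM in cortex and 514, 511 and 507 CPM in control tumours. The libraries did not overlap in CPM, yet the fitted log2 fold change was 0.07 (SE 0.10) and did not pass (limma adjusted p = 0.567). Rpl3, which lies near the peptidyl transferase centre of the large subunit, rose little, from 515 ± 37.5 to 713 ± 57.0 CPM (SD, n = 3; log2 fold change 0.30, SE 0.11, limma adjusted p = 0.0433). Rpl30 (log2 fold change 0.96, SE 0.52) and Rpl34 (0.54, SE 0.51) did not pass either, on very few reads.

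When each library was scaled to the geometric mean of the family, which leaves departures from it, 18 members were called higher and 14 lower in control tumours. On that scale 17.8% of all genes were called higher and 64% lower. The called departures included Rps27l (log2 1.62 above the family), Rplp0 (0.80), Rpl36 (0.79), Rpl18 (0.69) and Rps12 (0.51) on the high side. The low side included Rps4l (-3.36), Rpl22l1 (-0.92), Rps2 (-0.89), Rpl3 (-0.66) and Rplp1 (-0.55). The family thus rose as a block with unequal steps, and the family-scaled values are ratios within a library, which do not show that any member was constant.

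The scale of the libraries matters for the size of the rise. Scaling to library totals in place of the deposited size factors moved the median log2 fold change of all genes from -0.00 to 0.17. That of the members moved from 1.02 to 1.19. A change of scale shifts all genes nearly alike, so the gap between these medians is kept by the method and is not a result. The called counts were 74 higher and 1 lower with either scale.

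Rpl22 rose, and its copy Rpl22l1, which can take its place in the ribosome, did not pass the test. Rpl22 had 123, 122 and 125 CPM in cortex, 333, 287 and 281 CPM in control tumours, 316, 337 and 379 CPM in ETV5 tumours and 364, 425 and 486 CPM in NPY tumours. Rpl22l1 (chromosome 3 from 28805436 to 28807424, plus strand, protein coding) had 76.4, 83.2 and 69.7 CPM in cortex, 73.4, 86.2 and 108 CPM in control tumours, 123, 143 and 75.6 CPM in ETV5 tumours and 97.3, 111 and 179 CPM in NPY tumours. Rpl22 separated tumour from cortex, and Rpl22l1 did not: in control tumours the log2 fold changes were 1.11 (limma adjusted p = 3.01e-05) and 0.03 (adjusted p = 0.853).

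Rpl22l1 made up 38.4%, 40.5% and 35.9% of the reads of the pair in cortex and 16.6% to 29.9% in the 9 tumours, with 95% Wilson intervals of at most 2.75 percentage points to either side in any library. The mean share was 38.3% ± 2.30 (SD, n = 3) in cortex and 23.6% ± 4.75 (SD, n = 9) in tumours, with no overlap (exact two-sided permutation test, p = 0.00909, the smallest that 9 against 3 allow, Benjamini-Hochberg adjusted p = 0.0227 over 5 pairs). The means of the control, ETV5 and NPY tumours were 23.0%, 24.8% and 22.9%. Of Rpl22l1 transcript words, 57.3% also occur in other genes.

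The other 4 pairs were compared in the same way. Rps4l, annotated as a transcribed processed pseudogene on chromosome 6 from 148354656 to 148355598, made up 2.17% ± 0.644 (SD, n = 3) of the reads of Rps4l and Rps4x in cortex and 0.453% ± 0.880 (SD, n = 9) in tumours (exact two-sided permutation test, p = 0.0364, adjusted p = 0.0568). Rpl3l and Rpl39l had too few reads for a share to be read. The share of Rps27l in Rps27l and Rps27 was 95.1% in cortex and 98.9% in tumours (exact permutation p = 0.00909, adjusted p = 0.0227), but Rps27 was hardly counted, so this share does not give the balance of the copies.

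Rps4l was also the single member that fell in control tumours. It had 6.31, 4.19 and 8.63 CPM in cortex and 1.59, 1.10 and 0.798 CPM in control tumours (log2 fold change -2.48, SE 0.39, limma adjusted p = 0.000491). In ETV5 tumours it had 19.3, 2.69 and 1.42 CPM, and in NPY tumours 0.607, 0.974 and 0.668 CPM. A single ETV5 library, replicate 1 with 147 reads, therefore exceeded the cortex, while the other tumour libraries lay below it.

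**Figure D3:**
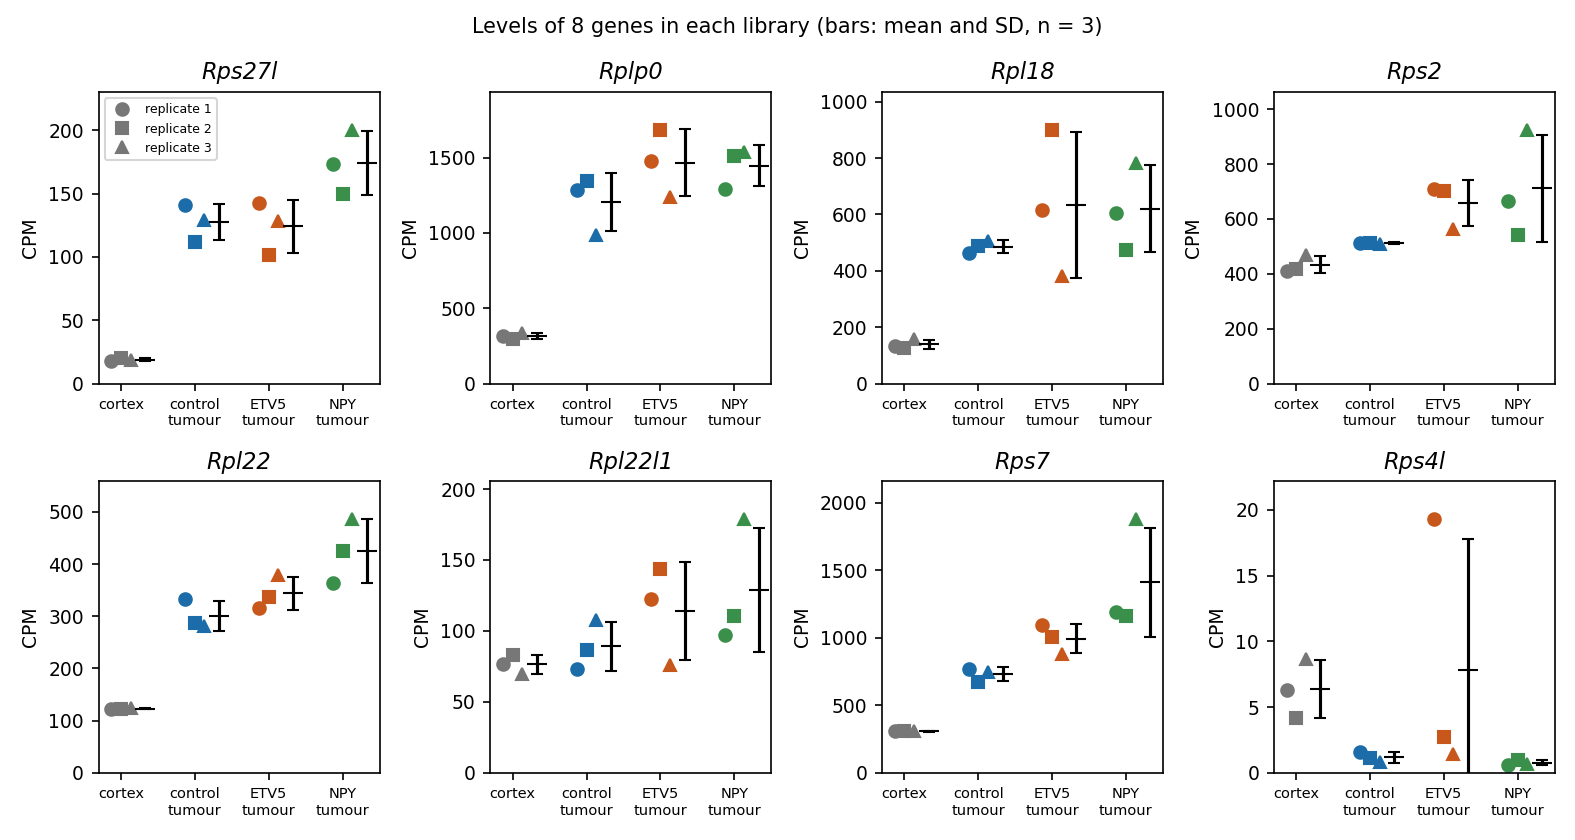
CPM of 8 members in each library (points), with the mean and SD of 3 as bars (the bar of Rps4l in ETV5 tumours is cut at 0). Rps27l, Rplp0, Rpl18, Rpl22 and Rps7 separate cortex from all tumours, and Rps2 and Rpl22l1 do so less or not at all. Rps4l shows 1 ETV5 library at 19.3 CPM.

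Genes that make or use ribosomes were set beside the family, again with 35.7% of all genes called higher and 36.2% lower in control tumours. Of 5 tested genes for ribosomal proteins or their partners outside the symbol rule, 4 rose, among them Gnb2l1, the Rack1 gene (log2 fold change 1.51), Fau (0.91) and Rpl36al (0.79). The other, Rps19bp1, which encodes a protein that binds Rps19, had a log2 fold change of -0.06 (SE 0.18, limma adjusted p = 0.782). Of 21 elongation factors and other mRNAs known to start with a pyrimidine tract, 14 rose and 2 fell, with a median log2 fold change of 0.69. The largest changes in that list were those of Vim, an intermediate filament (5.47), Eef1d (1.58) and the nucleolar chaperone Npm1 (1.28) upward, and of Eif4a2 (-1.42) and Nap1l1 (-0.63) downward. Of 35 ribosome assembly factors, 16 rose and 2 fell, with a median of 0.36. The helicase Ddx21 (1.39), the rRNA methyltransferase Fbl (1.38) and Nop58 (1.23) led the rises, and Rrp12 (-1.07) and Wdr12 (-0.58) fell.

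Of 20 known regulators of ribosomal protein mRNA, 7 were higher and 7 lower, shares near those of all genes (35.7% and 36.2%). Eif4ebp1, a translation repressor that mTOR switches off, rose from 2.86 ± 0.648 to 30.3 ± 8.40 CPM (SD, n = 3; log2 fold change 3.17). Myc, which drives ribosome production, rose from 4.57 ± 0.615 to 17.1 ± 1.72 CPM (SD, n = 3; log2 fold change 1.71), and Sp1 rose by a log2 fold change of 1.52. Tsc1 (-1.01) and Tsc2 (-0.71), which hold mTOR back, fell, as did Tbpl1 (-0.99). Mitochondrial ribosomal protein genes, which build a separate ribosome, gave 19 higher and 5 lower of 76 with a median of 0.14. The cytosolic family had 74 of 79 higher with a median of 1.02.

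Cell type markers moved with this comparison. All 14 neuron markers and all 10 oligodendrocyte markers were called lower in control tumours, the latter summing to 1952 to 4035 CPM against 14989.5 to 18899.9 in cortex. All 11 proliferation genes rose, summing to 890.4 to 1236 CPM against 76.3 to 82.2 in cortex, and 13 of 14 microglia and macrophage markers rose, summing to 4136 to 8786 CPM against 586 to 670.4. The remaining marker of that list, P2ry12, was called lower (log2 fold change -0.90). None of these markers was at 0 in any library. Of 8 fibroblast markers 7 rose, summing to 2867 to 3786 CPM against 226 to 282 in cortex, and 7 of 8 endothelial markers rose, summing to 337 to 464 CPM against 79.1 to 122. Of 9 astrocyte markers 6 fell and 2 rose, summing to 4150.2 to 4754 CPM against 6792 to 7952. Of 5 RNAs that mark RNA quality or nuclear RNA, 3 were called lower and 1, Neat1, higher, and they summed to 1755 to 1904 CPM against 3036 to 6296. The part of these cell types and of RNA quality in the rise of the family was not tested.

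The start regions of the genes were examined because the members moved together. RefSeq windows on GRCm38.p6, from 250 bases before to 50 after an annotated start, were found for 63 of the 84 members. There were 32851 windows for 27025 genes, and a gene counted as a match if any of its windows matched. The number of windows per member was not compared with that of other genes. A run of at least 8 C or T on the transcribed strand within 5 bases of the start was present in 24 of 63 members (38.1%), in 12.6% of the genes tested and in 11.4% of all genes with a window. The word CCGGAAG, the core bound by ETS factors such as ETV5, occurred on either strand in 26 of 63 members (41.3%), in 17.9% of the genes tested and in 9.93% of all genes. The words AAGATGG (YY1) and CACGTG (E-box) were in 15.9% and 9.52% of members against 7.98% and 11.3% of genes tested. GGGCGG, bound by Sp factors, was in 61.9% against 67.7%, and TATAAA in 11.1% against 9.01%. The ETS and YY1 words can share the letters AAG. The ETS word read on the other strand begins with CTTCC, letters that can be part of a pyrimidine tract. Such overlaps were counted for each. A match is a description of the letters and not a bound site.

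The start is shown for 2 of the genes with the largest rises and 2 that did not pass, in 25 bases before and 25 after the start, 5′ to 3′, with the tract at the start in capitals. Where a gene has several annotated starts, the start with the longest tract is given. The windows are chr7:45718046-45718095 for Rpl18, chr5:115559442-115559491 for Rplp0, chr3:28805483-28805532 for Rpl22l1 and chr17:24720038-24720087 for Rps2, all on the plus strand.
Rpl18: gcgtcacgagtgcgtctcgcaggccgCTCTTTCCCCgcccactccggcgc
Rplp0: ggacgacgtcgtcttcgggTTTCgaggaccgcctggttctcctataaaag
Rpl22l1: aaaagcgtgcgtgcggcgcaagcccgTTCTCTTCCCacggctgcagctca
Rps2: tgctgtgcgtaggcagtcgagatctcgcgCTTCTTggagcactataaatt
Rpl18, which rose, and Rpl22l1, which did not pass, both have a tract of 10 bases, and Rplp0, which rose, and Rps2, which did not pass, have tracts of 4 and 6. In Rplp0 the tract begins at base -6 and lies wholly before the annotated start. Whether the annotated starts are the ones used in these samples was not tested. These 4 genes were picked by their change, so their tract lengths are a description only.

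The ETS word is shown for Rps7 and Rps27l, in 75 bases before and 25 after the start, with the word in capitals. The windows are chr12:28635929-28636028 on the minus strand for Rps7 and chr9:66946011-66946110 on the plus strand for Rps27l, and the sequences read along the transcribed strand.
Rps7: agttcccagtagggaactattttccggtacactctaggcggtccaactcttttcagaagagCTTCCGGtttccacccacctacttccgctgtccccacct
Rps27l: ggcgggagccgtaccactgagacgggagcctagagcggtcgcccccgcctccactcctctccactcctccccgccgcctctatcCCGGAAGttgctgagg
Members with and without the ETS word had median log2 fold changes of 1.05 and 1.03 in control tumours against cortex, of 0.19 and 0.18 in ETV5 tumours against control tumours, and of 0.50 and 0.39 in NPY tumours against control tumours. Members with and without the tract had medians of 1.07 and 1.03, 0.22 and 0.18, and 0.47 and 0.39 in the same comparisons. These medians are descriptions and were not tested.

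No member differed by the test when ETV5 was added to the fusion. Limma called 0 of 80 members, and it called 0% of all 14382 genes. At an unadjusted p under 0.05 there were 2 members among 944 genes, and edgeR, limma-voom and DESeq2 also called 0 members, DESeq2 with 0.118% of all genes higher and 0.403% lower. Of the 80 members, 72 had a positive log2 fold change, with a median of 0.21, where the median of all genes was -0.02. In 16 members each ETV5 library lay above each control library, where 7.1% of all genes did so, and in 0 below, where 7.08% did.

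The spread between the ETV5 tumours was wide. Of the 76 genes above 10 CPM, 68 exceeded the highest control library in ETV5 replicate 2, but 40 did so in replicate 1 and 25 in replicate 3. Without replicate 2 the members' median fell to 0.08, and without replicate 3, whose library code differs from that of the controls, it was 0.24. Rpl18 had the largest SD of log2 CPM of these 76 genes (0.62), with 616, 900 and 381 CPM in the 3 ETV5 tumours. Rps7 had 1092, 1002 and 881 CPM against 771, 671 and 744 in control tumours, with no overlap, but its log2 fold change of 0.43 (SE 0.14) did not pass (limma adjusted p = 0.732). The other largest values were those of the barely counted Rps4l (1.80, SE 0.93) and Rpl34 (0.74, SE 0.44), and Rps27 (-0.34) and Rpl37a (-0.12) were among the lowest. The 14 neuron markers summed to 272, 1297 and 510 CPM in the 3 ETV5 tumours, against 912, 1011 and 1977 in control tumours. The 5 RNAs that mark RNA quality or nuclear RNA summed to 2406, 2014 and 6826 CPM, against 1755, 1839 and 1904. The part of these in the members' values was not tested.

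With NPY added to the fusion, values shifted upward and a single member passed. All 79 members tested had a positive log2 fold change, with a median of 0.40 where that of all genes was 0.04, but limma called 1 of 79, Rps7. Over all 14425 genes limma called 0.728% higher and 4.31% lower, and 34 members and 3389 of all genes had an unadjusted p under 0.05. In 31 members each NPY library lay above each control library, where 11.1% of all genes did so, and in 0 below, where 18.4% did. DESeq2 called 17 members higher, where it called 4.2% of all genes higher and 8.51% lower, and edgeR and limma-voom called 0. With all groups in 1 fit limma called 10 members higher, against 1.68% of all genes higher and 6.14% lower, and after scaling to the family it called 0, against 0.111% and 11.6%.

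Rps7, a small-subunit protein that can also bind Mdm2, had 771, 671 and 744 CPM in control tumours and 1190.4, 1163 and 1876 CPM in NPY tumours. Each NPY library was higher, and the log2 fold change was 1.003 (SE 0.21, limma adjusted p = 0.0447). Rps27a, the ubiquitin fusion, had 676, 599.9 and 552 CPM in control tumours and 819.9, 1129 and 1179.9 CPM in NPY tumours, also with no overlap, and its log2 fold change of 0.85 (SE 0.19) narrowly missed (limma adjusted p = 0.0526). Rps14 (0.77), Rpl39 (0.75), which lines the exit tunnel for the new protein, and the barely counted Rpl34 (0.83) had the next highest values among the named genes, and none of them passed. The call of Rps7 was lost without each control library in turn and without NPY replicate 1 or 2 (limma adjusted p of Rps7 from 0.0502 to 0.159), and was kept without NPY replicate 3.

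Replicate 3 of the NPY tumours held the highest levels. Of the 76 genes above 10 CPM, 75 exceeded the highest control library in replicate 3, 54 in replicate 2 and 42 in replicate 1. Without replicate 3 the members' median was 0.29, and without any other single library it was 0.37 to 0.50. Rpl35a had the largest SD of log2 CPM of these 76 genes (0.68), with 302, 625 and 737 CPM.

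**Figure D4:**
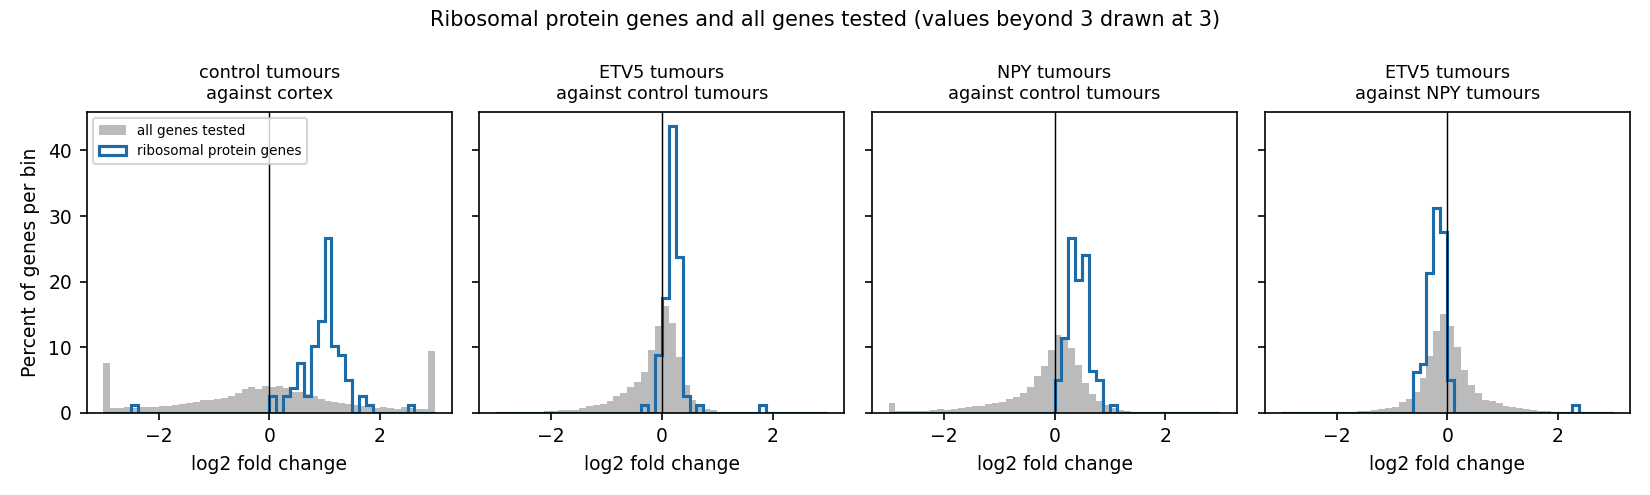
Distribution of log2 fold changes (horizontal axis, values beyond 3 drawn at 3) in the 4 comparisons, as percent of genes per bin, for the ribosomal protein genes (blue outline) and for all genes tested (grey). The members' median is 1.02, 0.21, 0.40 and -0.19 from left to right.

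Other measures moved with the NPY comparison. Of 14 neuron markers 10 were called lower in NPY tumours, summing to 132 to 261 CPM against 912 to 1977 in control tumours, and none was at 0. Of 11 proliferation genes 2 were called higher, summing to 1565 to 2104 CPM against 890.4 to 1236. Rn45s, the precursor of ribosomal RNA, which polyA selection should remove, had 1461, 4363 and 5869 CPM in NPY tumours against 754, 618 and 754 in control tumours (log2 fold change 2.33, limma adjusted p = 0.0491). It belongs to a list of 5 RNAs that mark RNA quality or nuclear RNA, of which 2 were called higher, Rn45s and Lars2 (1.51), and 2 lower, Malat1 (-1.42) and Neat1 (-1.36), with a median of -0.37. The part of these in the members' values was not tested. All NPY library codes in the labels start with EC and all control codes with DS, so the code and the group cannot be told apart within this comparison. With the code as a term over the 9 tumours, 2 ETV5 libraries with DS and 1 with EC carry the distinction, and then 0 members were called at a median of 0.60.

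Ribosome-related lists were also compared in these tumours. Of 35 assembly factors 33 had positive values in NPY tumours, with a median of 0.38 and 0 calls, and 33 were positive in ETV5 tumours with a median of 0.22. Of 76 mitochondrial ribosomal protein genes 71 were positive in NPY tumours, with a median of 0.27 and 1 called, Mrps6, which fell by 1.09. Npm1 (0.92, limma adjusted p = 0.0372) and Eif3e (0.69, adjusted p = 0.0315) were the 2 genes of the pyrimidine-tract list called higher with NPY. The ETV5 and NPY comparisons share their control libraries, so likeness between them is not a result.

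ETV5 and NPY tumours were last compared with each other on jointly scaled values. Limma called 0 of 80 members and 0% of all 14023 genes, with 3 members and 831 genes at an unadjusted p under 0.05, and edgeR, limma-voom and DESeq2 called 0 members, DESeq2 with 0.264% of all genes higher and 0.135% lower. The members' median log2 fold change was -0.19, lower in ETV5 tumours, and 5 of 80 were positive. In 6 members each ETV5 library lay below each NPY library and in 1 above, where 4.98% and 7.47% of all genes did so. The lowest values were those of Rpl39 (-0.60, SE 0.20), Rps27l (-0.55, SE 0.20) and Rps7 (-0.54, SE 0.23), each without overlap, and the highest that of Rps4l (2.30, SE 0.97). The median was -0.04 without NPY replicate 3, -0.09 without ETV5 replicate 3 and -0.30 without ETV5 replicate 2, and it lay between -0.29 and -0.19 without any other single library.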

How the data were processed

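The 12 libraries were described by 2 tables of 24421 genes, with cortex, control and ETV5 libraries in the first and control and NPY libraries in the second. Per the labels, 300 ng of total RNA went into stranded mRNA libraries sequenced as paired ends. STAR 2.5.0a and DESeq2 1.30.1, the quality tools FastQC 0.11.7 and MultiQC 1.6, and mm10 are listed in the submitters' processing notes. How reads were counted, and on which annotation, is not given in the sources used here. Values that the authors deposited are a normalized signal, in which each library was divided by its own size factor. Undoing this recovered whole reads, within 0.01 read, for 100% of values, and the control reads were identical in both tables.

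The members and the gene lists were chosen with earlier results of these data known. The test was limma 3.58.1 (R 4.3.3; trend, robust; group as the term; two-sided) on log2(deposited value + 1), fitted on all genes that passed a minimum of 10 recovered reads (scaled to library size) in 3 libraries and a sum of 15, with Benjamini-Hochberg adjustment over all genes tested. Fold changes are on this scale, which understates those of low genes. ETV5 and NPY tumours were compared on values rescaled by median of ratios over the 9 tumours. Alternatives were edgeR 4.0.16, DESeq2 1.42.0 and limma-voom on recovered reads, other scalings, filters and pseudocounts, all groups in 1 fit, a replicate block, the library code and leaving out each library. The scripts were tested on simulated data. Genes named are the copies of members and their main copies, the largest and smallest changes, the highest and lowest levels per kb, members with further known roles, those with the largest SD and up to 3 called genes per list and direction. Not each gene that this rule allows is reported. Positions and transcripts are from GENCODE M21, and 27 symbols that had turned into dates in each table were not used.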

Additional observations from a re-analysis of the deposited data

How the results depend on the processing

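In control tumours against cortex, 70 of the 74 higher calls and the 1 lower call stood in each of 19 alternatives that did not scale to the family, and 78 of 79 members kept their sign. Leaving out a library gave 70 to 74 higher. Scaling to the family gave 18 higher and 14 lower, and left 47 of 79 members positive by construction, so a change of sign there says nothing about a single gene. Among the genes named it reversed Rpl3 (-0.66), Rpl22l1 (-0.92), Rpl7l1 (-0.10), Rpl41 (-0.13), Rplp1 (-0.55), Rps14 (-0.021), Rps29 (-0.25), Rpl34 (-0.35), Rpsa (-0.14) and Rps2 (-0.89). Rpl22l1 also reversed with all groups in 1 fit (-0.015), without cortex replicate 3 and without control replicate 3 (-0.088 to 0.16 without 1 library). Over all genes, scaling to the family changed the calls from 5225 higher and 5296 lower to 2606 and 9363, and in NPY tumours from 105 and 622 to 16 and 1676.

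The single call in NPY tumours became 17 with DESeq2 and 10 with all groups in 1 fit (1.68% of all genes called higher). It became 0 with edgeR, limma-voom, TMM, library totals, upper quartiles, the library code, the replicate block and scaling to the family, and 0 to 1 without 1 library, and the cause was not tested. In ETV5 tumours and in ETV5 against NPY tumours each alternative called 0 members.

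The replicate block gave 72 higher and 1 lower in control tumours against cortex and 0 in ETV5 tumours. Correlations of same-numbered libraries ranged from -0.41 to 0.37, and those of differently numbered libraries from -0.54 to 0.51. They were taken on deviations from group means, which constrain each other, so they cannot tell whether the numbers pair the samples.

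The Rpl22l1 share differed by -14.7 points (-15.9 to -13.6 without 1 library), and the adjusted p rose to 0.0606 to 0.0909 without 1 cortex library, where fewer samples raise the smallest p. With control tumours alone it was -15.3 (adjusted exact permutation p = 0.167, the design's smallest raw p being 0.1). The Rps27l share differed by 3.76 points (2.66 to 4.39 without 1 library, 3.62 with control tumours alone), and that of Rps4l by -1.71 (-2.05 to -1.41 without 1 library, and -2.01, adjusted p = 0.0202, without ETV5 replicate 1). Per kb of transcript the family held 6.04%, 11.5%, 13.3% and 14.4% in cortex, control, ETV5 and NPY tumours. Of 792 values of single genes, 746 kept direction and side of the threshold, 31 lost and 2 gained a call.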

Other observations

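Further gene groups were measured beside the family in control tumours against cortex, where 35.7% of all genes were called higher and 36.2% lower. Of 15 initiation factors 6 rose and 1 fell, with a median log2 fold change of 0.33: the helicase Eif4a1 (0.82), Eif2s1 (0.68) and Eif2s2 (0.68), which carry the initiator tRNA, rose, and Eif4h (-0.43) fell. Of 14 genes that transcribe ribosomal RNA 6 rose and 1 fell, with a median of 0.16: the 5S factor Gtf3a (1.03), the RNA polymerase I factor Taf1d (0.89) and Polr1c (0.70) rose, and Gtf3c1 (-0.72) fell. These groups had smaller medians than the ribosomal protein genes at 1.02.

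Of 7 pseudogenes of the family in the tables, 5 were tested and all 5 were called higher, with a median log2 fold change of 1.32. Their 7 rows summed to 59.0 ± 4.84 CPM in cortex and 167 ± 12.6 CPM in control tumours (SD, n = 3). Reads of the members and of their processed copies cannot be told apart where the sequence is shared.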
